A study of Mus musculus with 2 samples.

Results

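Planar cell polarity (PCP) genes lay out a direction within the plane of a sheet of cells, and 10 of them were followed through the differentiation of ependymal cells, which carry many motile cilia and line the ventricles of the brain. The genes were taken by symbol from the 32287 genes of the deposited gene table and were Celsr1, Celsr2, Celsr3, Vangl1, Vangl2, Fzd3, Fzd6, Dvl1, Dvl2 and Prickle1. Each was present in the table, and all 10 passed the filter on low counts. Celsr3 had few counts, with its highest level in neuroblasts, and is given below by its counts.

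In the known pathway, Celsr cadherins of neighbouring cells bind each other across the cell border. Frizzled receptors and Dishevelled adaptors gather on one side of each cell, and Vangl and Prickle proteins gather on the opposite side. In ependymal cells this system helps to place the patch of basal bodies, the anchors of the cilia, and to align the beat of the cilia between cells.

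The cells came from primary cultures of the lateral ventricular walls of newborn mice aged P0 to P2, grown for 4 to 5 days, shaken to remove other cell types and held for 2 days in serum-free medium. The mice were C57BL/6N for replicate 1 and C57BL/6J for replicate 2, with no treatment or mutation named for either, so library, substrain and culture cannot be told apart. P-values below rest on how far these 2 libraries disagreed within populations after their common shift was removed. They do not cover other mice or cultures. Cells were dissociated with trypsin and profiled with the 10x Genomics 3′ v3 kit, in which each captured transcript counts once as a unique molecular identifier (UMI). The data hold transcripts, not the place of the proteins in the cell.

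Replicate 1 held 12028 cells and 173510950 UMIs (median 12708 per cell), and replicate 2 held 4373 cells and 70611931 UMIs (median 14409). The submitters' metadata names 14 populations, which were used as given. Progenitors I and II are called non-cycling progenitors below. The lineage is the 5 stages from early, mid and late deuterosomal cells, named after the structures that seed many centrioles, to early multiciliated cells (early MCCs) and MCCs. The summed level of 7 deuterosomal markers peaked in mid deuterosomal cells, at 1933 and 2069 UMIs per 1000000 UMIs of the same population and library (CPM) in replicates 1 and 2. The 7 multiciliated markers summed to between 2593 and 3646 CPM from the mid deuterosomal stage onwards, against 263 and 289 in progenitors I. Microglia of replicate 1 also carried 686 CPM of the 7 progenitor markers and 551 CPM of the multiciliated markers, against 80.9 and 116 in replicate 2. Neuroblasts were shallow, with medians of 4591 and 5581 UMIs per cell. Both libraries shared 13 barcode sequences.

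The lineage differed from non-cycling progenitors at 6 of the 10 genes, and the sharpest change was within the Vangl pair. Vangl1 was 2.81-fold higher in the lineage and Vangl2 was 1.72-fold lower. Celsr1, Fzd6 and Dvl2 were higher by 1.30-fold, 1.35-fold and 1.22-fold, and Celsr2 was lower by 1.31-fold. Fzd3, Dvl1 and Prickle1 did not pass the test, edgeR's quasi-likelihood test with Benjamini-Hochberg adjustment and a threshold of 0.05, and Celsr3 had too few counts for an estimate. In the same comparison 70.8% of the 15877 genes tested passed it, 36% higher and 34.9% lower, so the count of 6 is near the background. With only 34 cells drawn per population and library, 3 of the 10 genes passed, and Celsr2 and Dvl2 were among those that did not. Fzd6 did not enter the test in that setting, so its call was not checked there. The median log2 fold change of the 9 genes other than Celsr3 was 0.05, and that of all genes tested was 0.01.

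**Figure D1:**
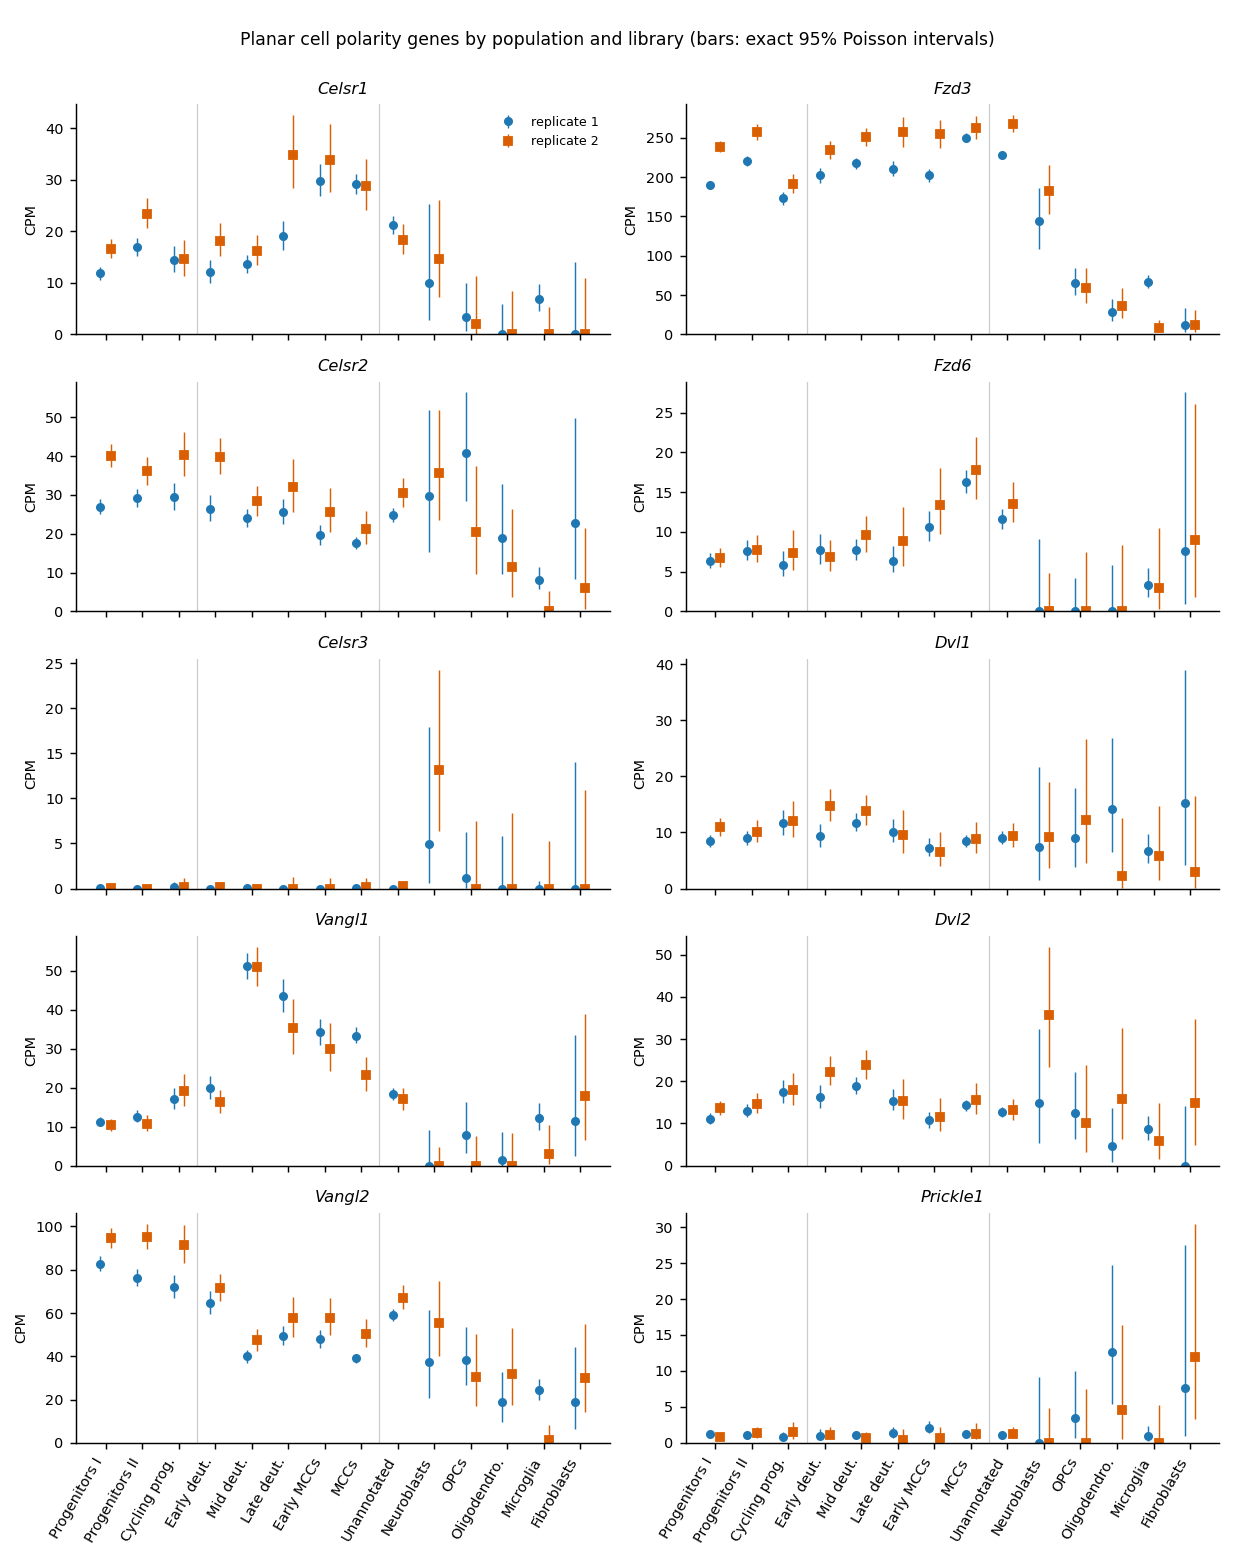
Level of each of the 10 genes in CPM (y axis, from 0, each panel on its own scale) in the 14 populations (x axis), with replicate 1 as circles and replicate 2 as squares. Bars are exact 95% Poisson intervals, which cover counting error only; grey lines set off the 5 stages of the lineage, and Vangl1 is highest in mid deuterosomal cells at 51.1 and 50.9 CPM.

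The Celsr genes encode the atypical cadherins that bridge neighbouring cells. Celsr1 (chr15:85898929-86033777, minus strand, mm10) stood at 11.8 and 16.6 CPM in progenitors I and at 16.9 and 23.4 CPM in progenitors II. It held 12.0 and 18.2 CPM in early, 13.6 and 16.2 in mid and 19.0 and 34.8 in late deuterosomal cells. Early MCCs had 29.8 and 33.7 CPM and MCCs 29.2 and 28.8 CPM. The multiciliated stages were thus above the early and mid deuterosomal stages in both libraries, while the late deuterosomal stage was split between libraries.

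Celsr1 was 1.73-fold higher in the multiciliated stages than in the deuterosomal stages (0.79 on the log2 scale, edgeR adjusted p = 3.75e-05). The standard error (SE) of 0.13 was that of the edgeR fit, which estimates the spread over all populations together. It is not the spread of this change between the 2 libraries, which gave 0.97 and 0.49. Values written with ± below are log2 fold changes with the SE of the fit. Celsr1 was among 5 of the 10 genes that passed the test in this comparison, where 55.4% of all genes tested did, 28.7% higher and 26.7% lower. Against non-cycling progenitors the lineage was higher by 0.38 ± 0.12 (adjusted p = 0.00586), and this call was lost without the library term (adjusted p = 0.0755). Against cycling progenitors it was higher by 0.61 ± 0.19 (adjusted p = 0.0083), and lost with cells thinned to 5000 UMIs (adjusted p = 0.0521). The step from mid to late deuterosomal cells gave 0.64 ± 0.22 (adjusted p = 0.0467), with a rise of 1.01 in replicate 2 and 0.40 in replicate 1. It was lost without the library term (adjusted p = 0.194) and with no low count filter (adjusted p = 0.0671).

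Celsr2 (chr3:108390851-108415552, minus strand) moved the other way. It held 26.9 and 40.0 CPM in progenitors I, 29.2 and 36.1 in progenitors II and 29.5 and 40.2 in cycling progenitors. Early, mid and late deuterosomal cells had 26.5 and 39.8, 24.0 and 28.3, and 25.6 and 32.0 CPM. It reached its lowest lineage level in MCCs, at 17.6 and 21.3 CPM, with 19.6 and 25.6 CPM in early MCCs. Replicate 2 was above replicate 1 in each of these populations, and the lineage overlapped the progenitors.

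The fit gave Celsr2 a log2 fold change of −0.38 ± 0.09 against non-cycling progenitors (adjusted p = 0.000788) and −0.50 ± 0.12 between multiciliated and deuterosomal stages (adjusted p = 0.000946). Against cycling progenitors it was −0.40 ± 0.14 (adjusted p = 0.0166), a call lost without the library term (adjusted p = 0.145) and in thinned cells (adjusted p = 0.196). As Celsr1 rose and Celsr2 fell, the share of Celsr1 among the UMIs of both genes went from 31.3% and 31.4% in early deuterosomal cells to 62.4% and 57.5% in MCCs. The 95% exact intervals for MCCs were 59.8 to 64.9 and 51.0 to 63.8. A 3′ tag counts a molecule once whatever its length, but capture can differ between genes, so the change of such a share is read and not its level.

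Celsr3 (chr9:108826320-108852969, plus strand), a relative studied mainly in neurons, gave 28 UMIs in all libraries and populations. Of these, 12 were in neuroblasts, 2 in replicate 1 (4.95 CPM) and 10 in replicate 2 (13.2 CPM). Non-cycling progenitors held 4 UMIs in all. The ratio of neuroblasts to non-cycling progenitors was 199 (95% counting interval 60.2 to 845). It was 80.0 (6.68 to 698) in replicate 1 and 376 (53.4 to 16303) in replicate 2. Lineage stages held 0 to 2 UMIs per library, too few for a comparison at this depth.

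The Vangl genes encode the membrane proteins that mark the side of the cell opposite Frizzled. Vangl1 (chr3:102153583-102204693, minus strand) stood at 11.3 and 10.4 CPM in progenitors I and at 12.6 and 10.8 in progenitors II. It held 19.8 and 16.3 CPM in early deuterosomal cells and reached 51.1 and 50.9 CPM in mid deuterosomal cells. It then stood at 43.5 and 35.2 CPM in late deuterosomal cells, 34.2 and 30.0 in early MCCs and 33.3 and 23.2 in MCCs. Each of the 10 lineage values was above each of the 4 values of non-cycling progenitors.

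Against non-cycling progenitors the fit gave 1.49 ± 0.10 for Vangl1 (adjusted p = 8.9e-13), and against cycling progenitors 0.90 ± 0.14 (adjusted p = 6.44e-06). Against cycling progenitors 5 of the 10 genes passed, beside 59.3% of all genes tested, 30.6% higher and 28.6% lower. The largest of the 5 steps of Vangl1 was from early to mid deuterosomal cells, where Vangl1 was 3.03-fold higher (1.60 ± 0.15, adjusted p = 1.03e-08). At that step 49% of all genes tested passed the test, 28.2% higher and 20.8% lower. The step before it, from progenitors II to early deuterosomal cells, gave 0.61 ± 0.18 (adjusted p = 0.00995), beside 31.4% of genes (16.9% higher, 14.5% lower), and was lost without the library term (adjusted p = 0.197).

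The later decline of Vangl1 was less firm. The step from mid to late deuterosomal cells gave −0.43 ± 0.15 (adjusted p = 0.0368), beside 21.8% of genes, 8.61% higher and 13.2% lower. With DESeq2 size factors it was −0.33 (adjusted p = 0.0961) and in cells thinned to 5000 UMIs −0.07 (adjusted p = 0.876). Multiciliated and deuterosomal stages differed by −0.14 ± 0.10, which did not pass the test (adjusted p = 0.24).

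Vangl2 (chr1:172000960-172028444, minus strand) stood at 82.8 and 94.5 CPM in progenitors I, 76.4 and 95.2 in progenitors II and 72.2 and 91.6 in cycling progenitors. It held 64.7 and 71.5 CPM in early deuterosomal cells and its lowest stage value in replicate 2, 47.4 CPM, in mid deuterosomal cells, where replicate 1 had 39.9. Late deuterosomal cells had 49.5 and 57.6 CPM, early MCCs 47.8 and 57.8, and MCCs 39.0 and 50.3. Each lineage value was below each value of the progenitor populations, and replicate 2 was above replicate 1 throughout.

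Vangl2 was lower in the lineage by −0.78 ± 0.09 on the log2 scale against non-cycling progenitors (adjusted p = 7.25e-08) and by −0.62 ± 0.13 against cycling progenitors (adjusted p = 0.000202). From early to mid deuterosomal cells, the step at which Vangl1 rose, Vangl2 fell by 0.54 ± 0.16 (adjusted p = 0.00924). That call was lost without the library term (adjusted p = 0.196). Between multiciliated and deuterosomal stages it differed by −0.20 ± 0.11 (adjusted p = 0.128).

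**Figure D2:**
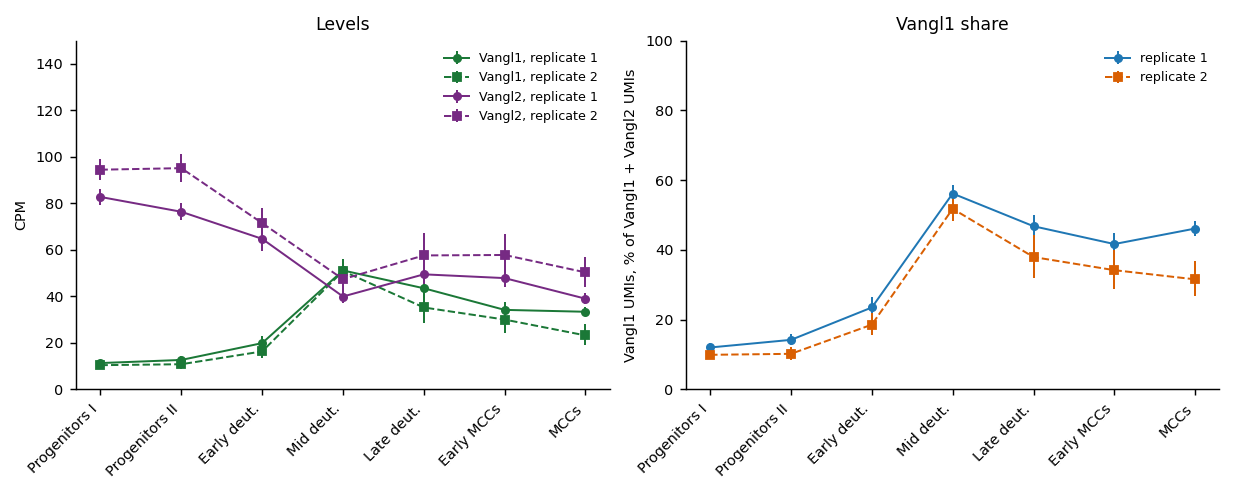
Left, Vangl1 and Vangl2 in CPM (y axis, from 0) from progenitors I to MCCs (x axis); right, Vangl1 UMIs as a percentage of the UMIs of both genes. Circles and solid lines are replicate 1, squares and dashed lines replicate 2, bars are exact 95% intervals for counting error, and the share is highest in mid deuterosomal cells at 56.2% and 51.8%.

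The share of Vangl1 among the UMIs of the pair was 12.0% (95% exact interval 10.8 to 13.3) and 9.88% (8.56 to 11.3) in progenitors I. In early deuterosomal cells it was 23.5% and 18.5%. It was 56.2% (53.7 to 58.6) and 51.8% (48.2 to 55.4) in mid deuterosomal cells. MCCs had 46.1% (44.0 to 48.2) and 31.5% (26.7 to 36.7), where the libraries differed by more than counting error. In single cells thinned to 5000 UMIs, both transcripts were seen together in 4.00% and 4.05% of mid deuterosomal cells. The product of the shares of cells with each transcript was 3.67% and 4.09%.

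Vangl1 was also higher in cycling than in non-cycling progenitors, by 0.59 ± 0.16 (adjusted p = 0.00494), with 17.1 and 19.1 CPM in cycling progenitors. It was 1 of 2 of the 10 genes that passed the test there, beside 38.6% of all genes tested (17.4% higher, 21.3% lower). The call was lost without the library term (adjusted p = 0.0949) and in thinned cells (adjusted p = 0.261). The metadata gives each cell 1 of 5 cell cycle classes, by a method that the sources used here do not name. Within cycling progenitors, Vangl1 stood at 16.8 and 13.6 CPM in class G0, at 9.51 and 9.42 in class G1, at 14.6 and 11.1 in class S and at 22.7 and 28.7 in class S/G2. The Poisson intervals of S/G2 (18.4 to 27.8 and 22.0 to 36.7) lay above those of G1 (5.64 to 15.0 and 4.31 to 17.9) in both libraries. The intervals of G0 (9.58 to 27.2 and 5.47 to 28.0) overlapped those of S/G2, and its values were above those of class S.

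In early deuterosomal cells class S/G2 held 32.2 and 32.8 CPM and class G0 held 19.7 and 14.4 CPM, and the intervals of replicate 2 did not overlap (21.2 to 48.4 against 11.2 to 18.2). In replicate 1 they overlapped (16.1 to 57.6 against 16.5 to 23.3). Mid deuterosomal cells of class S/G2 held 53.3 and 52.0 CPM, and those of class S 38.8 and 42.6. These intervals overlapped in replicate 2 (46.6 to 57.8 against 30.0 to 58.8) and not in replicate 1 (49.6 to 57.3 against 31.1 to 47.8). Class S was higher in the mid than in the early deuterosomal stage, which held 17.9 and 16.1 CPM there.

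**Figure D3:**
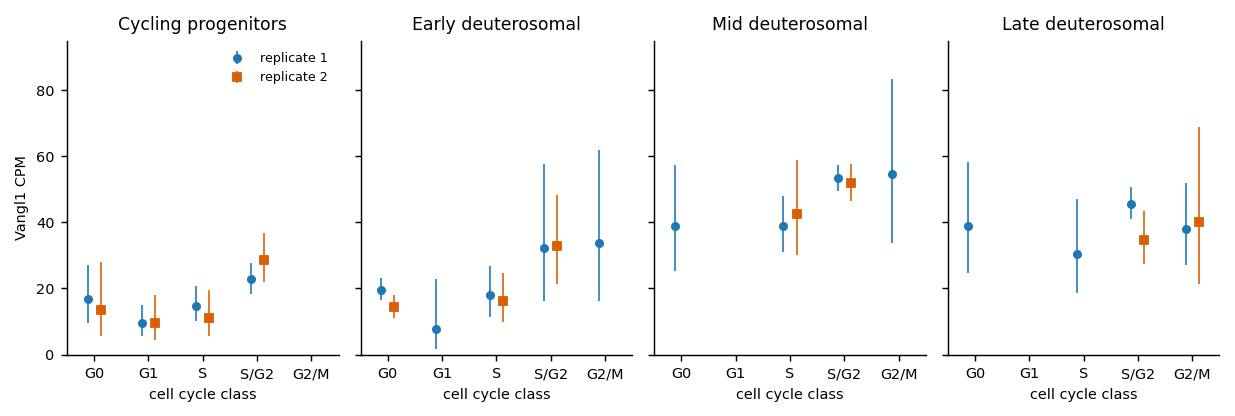
Vangl1 level in CPM (y axis, from 0) by deposited cell cycle class (x axis) within cycling progenitors and the 3 deuterosomal stages, for classes with at least 20 cells in a library. Circles are replicate 1, squares replicate 2, and bars are exact 95% Poisson intervals; within cycling progenitors class S/G2 is highest, at 22.7 and 28.7 CPM.

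The annotation places an antisense gene, Gm16160 (chr3:102203956-102206266, plus strand), across the first 738 bases of Vangl1, exon included. The sources used here do not say whether counting used strand, so reads in the overlap may belong to either gene. The gene was looked at because of this overlap and after its values were seen, so it is described with no test. Gm16160 had 3 UMIs in non-cycling progenitors and 157 in mid deuterosomal cells, a ratio of 159 (95% counting interval 53.4 to 780). The ratio was 342 (60.2 to 13612) in replicate 1, with 1 UMI in the progenitors, and 60.8 (15.5 to 523) in replicate 2, with 2 UMIs. Its level was 7.06 and 4.27 CPM in mid and 7.62 and 9.24 CPM in late deuterosomal cells, then 3.09 and 2.09 CPM in MCCs. Vangl1 and Gm16160 were both low in progenitors and high from the mid deuterosomal stage, at 51.1 and 7.06 CPM in replicate 1.

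Prickle1 (chr15:93499114-93595891, minus strand), which encodes a cytoplasmic partner of Vangl proteins, was near 1 CPM along the lineage. Its 10 lineage values ran from 0.36 to 2.10 CPM and its 4 non-cycling progenitor values from 0.84 to 1.32 CPM. The fit gave 0.01 ± 0.27 against non-cycling progenitors (adjusted p = 0.999), 0.24 ± 0.47 against cycling progenitors (adjusted p = 0.684) and 0.47 ± 0.33 between multiciliated and deuterosomal stages (adjusted p = 0.236). The sign of the first 2 changed with the settings. Higher levels were seen outside the lineage, with 12.6 and 4.53 CPM in oligodendrocytes (8 and 2 UMIs) and 7.62 and 11.9 CPM in fibroblasts (2 and 4 UMIs). A change along the lineage was not detectable at this depth.

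Frizzled receptors sit opposite Vangl in the polarised cell. Fzd3 (chr14:65192449-65262463, minus strand) had the most UMIs of the 10 genes, 53485 of the whole table. It held 190 and 239 CPM in progenitors I, 221 and 257 in progenitors II, 202 and 234 in early, 218 and 251 in mid and 211 and 257 in late deuterosomal cells. Early MCCs had 202 and 255 CPM and MCCs 250 and 263 CPM. Replicate 2 was above replicate 1 at each of these, and the stages overlapped.

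Fzd3 in the lineage differed from non-cycling progenitors by 0.02 ± 0.14 (adjusted p = 0.906, 95% interval −0.27 to 0.32). Multiciliated and deuterosomal stages differed by 0.06 ± 0.15 (adjusted p = 0.787, interval −0.27 to 0.38). Against cycling progenitors, which had 173 and 192 CPM, the lineage was higher by 0.39 ± 0.19, which did not pass the test (adjusted p = 0.0894). It passed in 4 alternatives, among them thinned cells (adjusted p = 0.000358). Microglia held 67.1 CPM in replicate 1 and 8.66 CPM in replicate 2, and the neural markers in microglia differed between the libraries in the same direction. The part of those transcripts in the microglial values was not tested.

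Fzd6 (chr15:39006034-39038188, plus strand) rose late. It held 6.29 and 6.72 CPM in progenitors I, 7.62 and 7.74 in progenitors II, 7.70 and 6.84 in early, 7.69 and 9.58 in mid and 6.40 and 8.89 in late deuterosomal cells. Early MCCs had 10.6 and 13.4 CPM and MCCs 16.3 and 17.7 CPM. The MCC values were above those of every other named population in both libraries, and the deuterosomal stages overlapped the progenitors.

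Multiciliated stages exceeded deuterosomal stages by 0.85 ± 0.11 at Fzd6 (adjusted p = 5.7e-07). The rise came in 2 steps, 0.68 ± 0.20 from late deuterosomal cells to early MCCs (adjusted p = 0.0137, beside 22.8% of all genes, 10.3% higher and 12.4% lower) and 0.54 ± 0.15 from early MCCs to MCCs (adjusted p = 0.0215, beside 10.9%, 4.56% higher and 6.29% lower). Without the library term both steps were lost (adjusted p = 0.0916 and 0.38), and the first was also lost in thinned cells (adjusted p = 0.292). The lineage was higher by 0.44 ± 0.09 than non-cycling progenitors (adjusted p = 0.000198) and by 0.63 ± 0.16 than cycling progenitors (adjusted p = 0.00148). In thinned cells these were 0.19 (adjusted p = 0.322) and 0.54 (adjusted p = 0.184).

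At its start Fzd6 overlaps Gm26704 (chr15:39003285-39006185, minus strand), a noncoding gene annotated as transcribed the other way from the same promoter, by 152 bases including exon. Gm26704, chosen for this overlap after its values were seen, stood at 0.74 and 0.39 CPM in mid deuterosomal cells and at 3.45 and 3.55 CPM in MCCs. It was thus also highest in MCCs among the lineage stages, in both libraries.

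**Figure D4:**
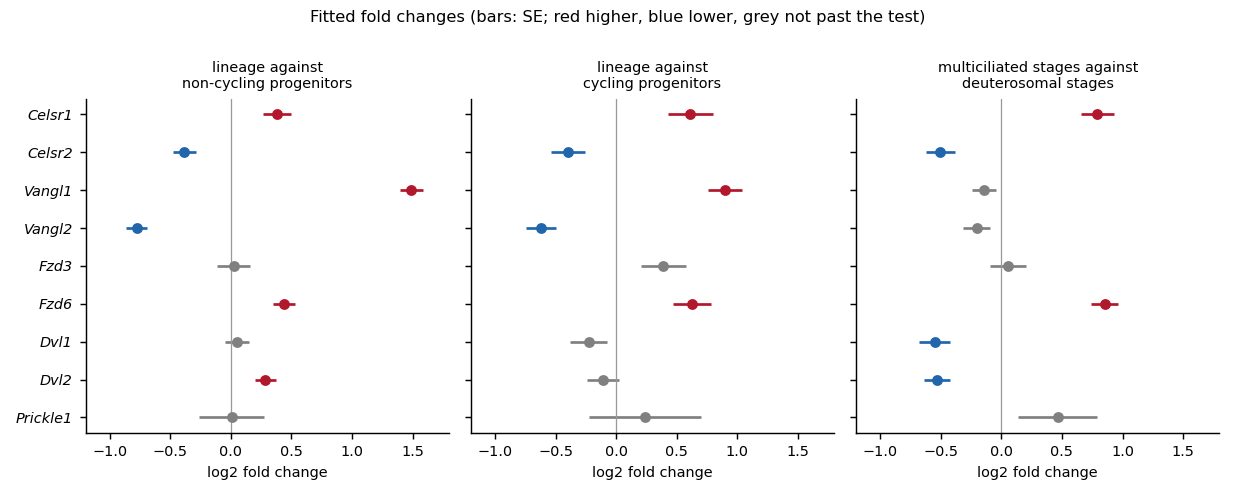
Fitted log2 fold changes (x axis) of the genes (y axis, Celsr3 left out) for the lineage against non-cycling progenitors, the lineage against cycling progenitors, and multiciliated against deuterosomal stages. Bars are standard errors; red marks genes past the test and higher, blue lower, grey not past it, and Vangl1 at 1.49 is the farthest from 0.

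Dishevelled proteins carry the signal inside the cell from Frizzled receptors. Of the 10 genes, 6 had an entry in the RefSeq promoter table, which gives 250 bases before and 50 after a transcript start on GRCm38.p6 (mm10). Windows for Celsr1, Vangl1, Fzd3 and Fzd6 were not used here. Windows are shown for the 3 genes that fell between deuterosomal and multiciliated stages. They are those of Celsr2 (chr3:108415530-108415829, minus strand), Dvl1 (chr4:155847152-155847451, plus strand) and Dvl2 (chr11:70000342-70000641, plus strand). Capitals mark GTTGCC, letters from the binding motif of RFX factors, which regulate many cilia genes.
Celsr2: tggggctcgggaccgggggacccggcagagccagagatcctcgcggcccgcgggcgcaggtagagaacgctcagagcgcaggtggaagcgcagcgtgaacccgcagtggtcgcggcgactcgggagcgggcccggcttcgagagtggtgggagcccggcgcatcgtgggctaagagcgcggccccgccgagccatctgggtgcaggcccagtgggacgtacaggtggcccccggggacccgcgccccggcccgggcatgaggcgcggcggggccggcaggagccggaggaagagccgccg
Dvl1: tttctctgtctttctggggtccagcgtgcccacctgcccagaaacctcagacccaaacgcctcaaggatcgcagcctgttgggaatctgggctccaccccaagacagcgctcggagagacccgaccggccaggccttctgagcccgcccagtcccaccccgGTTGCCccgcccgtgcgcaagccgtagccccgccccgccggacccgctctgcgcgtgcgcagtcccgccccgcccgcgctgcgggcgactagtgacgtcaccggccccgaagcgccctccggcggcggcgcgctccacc
Dvl2: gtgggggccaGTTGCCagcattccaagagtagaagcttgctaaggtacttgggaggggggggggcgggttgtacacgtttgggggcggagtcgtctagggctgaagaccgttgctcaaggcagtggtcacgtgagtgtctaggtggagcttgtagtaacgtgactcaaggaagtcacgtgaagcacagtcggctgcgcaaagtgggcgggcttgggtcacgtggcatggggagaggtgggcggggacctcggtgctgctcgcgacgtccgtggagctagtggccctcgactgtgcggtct
The match lay 89 bases before the start in Dvl1 and 240 bases before it in Dvl2, and the Celsr2 window held none. Searched on both strands (GTTGCC or GGCAAC), these letters were present in 12.5% of the 32851 windows in the table. Of the 7 windows of these genes, 3 held it, the other one being upstream of Prickle1. No window of the 7 held the forkhead letters TGTTTAC (3.65% of all windows, both strands) or the E2F letters GGCGGGAA (2.19%). A match of letters is a description and not a binding site.

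Dvl1 (chr4:155847402-155859303, plus strand) held 8.40 and 10.9 CPM in progenitors I and 8.94 and 10.1 in progenitors II. Early, mid and late deuterosomal cells had 9.32 and 14.8, 11.7 and 13.8, and 10.2 and 9.60 CPM. Early MCCs had 7.30 and 6.56 CPM and MCCs 8.47 and 8.77 CPM. Values of the lineage overlapped those of the progenitors, and both MCC stages were below all 3 deuterosomal stages in each library. Multiciliated stages were lower by −0.55 ± 0.13 than deuterosomal stages (adjusted p = 0.000751), a call lost in thinned cells (adjusted p = 0.078).

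Neither comparison of Dvl1 with progenitors passed the test. The lineage differed by 0.05 ± 0.10 from non-cycling progenitors (adjusted p = 0.693) and by −0.23 ± 0.15 from cycling progenitors (adjusted p = 0.211).

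Dvl2 (chr11:70000595-70012301, plus strand) held 11.1 and 13.5 CPM in progenitors I and 13.0 and 14.7 in progenitors II. It held 16.3 and 22.3 CPM in early, 18.9 and 23.8 in mid and 15.4 and 15.3 in late deuterosomal cells, then 10.7 and 11.6 in early MCCs and 14.3 and 15.7 in MCCs. The mid deuterosomal stage was the highest of the lineage and early MCCs the lowest, in both libraries. Cycling progenitors held 17.4 and 17.9 CPM.

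Multiciliated stages were lower in Dvl2 than deuterosomal stages by −0.53 ± 0.11 (adjusted p = 0.000156). The lineage exceeded non-cycling progenitors by 0.28 ± 0.09 (adjusted p = 0.00502), lost without the library term (adjusted p = 0.0976). It did not pass against cycling progenitors (−0.11 ± 0.13, adjusted p = 0.484). Cycling progenitors exceeded non-cycling ones by 0.39 ± 0.14 (adjusted p = 0.0247), again lost without the library term (adjusted p = 0.209). The steps from progenitors II to early deuterosomal cells (0.44 ± 0.15, adjusted p = 0.0251) and from mid to late deuterosomal cells (−0.49 ± 0.16, adjusted p = 0.0298) were lost in thinned cells (adjusted p = 0.261 and 0.832). Dvl2 overlaps the 3′ part of Acadvl on the opposite strand by 2119 bases, exon included, and Acadvl stood at 36.9 and 29.8 CPM in mid deuterosomal cells and 87.6 and 92.5 in MCCs, lower in mid deuterosomal cells in both libraries.

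Between progenitors I and II none of the 10 genes passed edgeR's quasi-likelihood test, where 7.17% of all genes did, 4.45% higher and 2.73% lower. Celsr1 was the 1 gene with an unadjusted p under 0.05 (0.0347), at 0.42 ± 0.18 and adjusted p = 0.21, and it rose by 0.42 in each library. With only these populations in the fit, 2 of the 10 genes passed. In the comparison of cycling with non-cycling progenitors the 7 genes other than Vangl1, Dvl2 and Celsr3 lay between −0.37 ± 0.20 at Fzd3 (adjusted p = 0.177) and 0.27 ± 0.16 at Dvl1 (adjusted p = 0.185). These comparisons and those of the lineage share their progenitor samples.

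Neuroblasts, neuronal precursors outside the ependymal lineage, carried 1967 and 2949 CPM of the 6 cycling markers, against 93.2 and 93.4 in progenitors I. Cell type and cell cycle thus cannot be told apart when they are set against non-cycling progenitors. Neuroblasts held 0 UMIs of Vangl1 and of Fzd6 in both libraries. Against the floor of 3 counts over both libraries, Vangl1 was at least 4.39-fold lower than in non-cycling progenitors and Fzd6 at least 2.69-fold lower. Vangl2, at 37.2 and 55.4 CPM, was lower by −1.16 ± 0.28 (adjusted p = 0.00185), and Fzd3, at 144 and 182 CPM, by −0.75 ± 0.29 (adjusted p = 0.0491). The Fzd3 call was lost with DESeq2 size factors (adjusted p = 0.0567), with no low count filter (0.0566) and without the library term (0.0931). It was also lost without unannotated cells (adjusted p = 0.0696), with 34 cells per population and library (0.298) and in DESeq2's Wald test (0.104). Dvl2 gave 0.79 ± 0.30 (adjusted p = 0.0343), but its level was 14.9 CPM in replicate 1 and 35.6 in replicate 2, and the value in replicate 1 alone was −0.03. With Celsr3, 6 of the 10 genes passed the test, beside 44.4% of all genes (17.4% higher, 27.1% lower), whose median was −0.41.

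Shares of cells with a UMI were compared after each cell was thinned to 5000 UMIs, with microglia as a cell type outside the neural epithelium (median depths of 13668 and 17034 UMIs, against 11585 to 22456 in the lineage). Fzd3 was seen in 58.0% to 73.7% of thinned cells over the 10 lineage values and in 20.2% and 5.13% of microglia. Vangl2 was seen in 16.3% to 29.1%, against 7.32% and 0 of 39 thinned microglia in replicate 2, which allows up to 7.69% of thinned cells with a UMI and sets no limit on cells that express the gene. Before thinning these microglia held 1 UMI of Vangl2. Vangl1 was seen in 20.5% and 19.4% of mid deuterosomal cells, against 4.53% and 2.56% of microglia, and in 57.7% and 55.8% of mid deuterosomal cells before thinning. Its level in microglia was 12.3 and 2.89 CPM, against 11.3 and 10.4 CPM in progenitors I and 12.6 and 10.8 CPM in progenitors II. In replicate 1 the Vangl1 level of non-cycling progenitors was thus close to that of microglia. Fzd6 was seen in 8.49% and 9.96% of MCCs, against 1.05% of microglia in replicate 1. For Dvl1, 5 of the 10 lineage shares were at or below the higher microglial share of 5.13%, and for Dvl2 1 of 10 was. The higher Dvl1 share in microglia rests on 2 of 39 cells, and lineage shares at or below it are not read as expression above that of microglia.

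The likeness of other genes was measured by the Pearson correlation of log2 CPM over the 26 sums of population and library, centred within each library, among 4319 genes. It is a description, since sums of a library share its depth and culture. Vangl1 was most like Rexo2 (r = 0.98), Galc (0.96) and Krcc1 (0.96), and genes like Fzd6 included Itm2c and Anxa5 (both 0.96). Celsr1 was most like another of the 10 genes, Fzd3 (0.96), followed by Mir100hg and Sox9 (both 0.96). Celsr2 was most like Ptprd, Vangl2 most like Zfp428 (both 0.96) and Fzd3 most like Tead1 (0.96). Celsr2 and Vangl2, the pair of genes that fell in the lineage, had r = 0.92, and Vangl1 and Fzd6 had 0.91. These values span all 13 populations, also those outside the lineage, and can be high without a shared course along it. Vangl1 and Fzd6 both stood at 0 CPM in neuroblasts. Within the lineage Vangl1 was highest in mid deuterosomal cells and Fzd6 in MCCs. For the low genes the values were smaller, with 0.84 for Dvl1 and Stt3b, 0.86 for Dvl2 and Gnai3, 0.84 for Celsr3 and Sox11 and 0.90 for Prickle1 and Sirt2. Between the 2 libraries, levels over the 13 populations had r = 0.997 for Fzd6, 0.86 for Vangl1 and 0.80 for Fzd3. The value was 0.79 for Celsr2 and Celsr3 and 0.78 for Celsr1. It was 0.57 for Vangl2, 0.44 for Prickle1, 0.37 for Dvl2 and −0.06 for Dvl1. These values include populations outside the lineage and sums of 0. Fzd6 had 0 UMIs in 6 of the 26 sums, and Vangl2 in microglia was 24.2 and 1.44 CPM. The part of such populations in r was not tested.

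Other genes of the pathway were grouped in lists, of which 8 are described. Of 15 genes for basal body orientation and the apical cortex, 11 were higher and 3 lower when the lineage was set against non-cycling progenitors, with a median of 0.43 against 0.01 over all genes. For this and the other lists, the share of all genes tested that passed in this comparison was 36% higher and 34.9% lower. Bbof1, which keeps basal bodies aligned, was higher by 2.55 ± 0.09 (adjusted p = 3.6e-18), and Ift88, a component of the transport system that builds cilia, by 2.06 ± 0.09 (adjusted p = 1.29e-15). Myh10, a non-muscle myosin, was lower by −0.99 ± 0.10 (adjusted p = 8.43e-08). All 4 tested effectors of the CPLANE complex, which links PCP proteins to cilium formation, were higher (median 0.83), led by Wdpcp at 1.71 ± 0.08 (adjusted p = 1.2e-15).

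Of the 5 other core genes 3 were higher and 1 was lower (median 0.41). Ankrd6, also called Diversin, a Dishevelled partner, was higher by 1.57 ± 0.10 (adjusted p = 5.44e-13) and Prickle4 by 1.06 ± 0.21 (adjusted p = 6.79e-05). Dvl3, another Dishevelled gene, was lower by −0.36 ± 0.07 (adjusted p = 7.32e-05). Of 10 trafficking, turnover and scaffold genes 4 were higher and 2 lower (median 0.06), a higher count near the 36% of all genes. Scrib, a polarity scaffold that binds Vangl proteins, was higher by 1.03 ± 0.07 (adjusted p = 1.93e-12).

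Of 13 tested PCP ligands, co-receptors and modulators, 9 were lower and 1 was higher (median −1.02), beside 34.9% lower and 36% higher over all genes. The gene that rose was Wnt4, a secreted Wnt ligand, by 3.50 ± 0.16 (adjusted p = 7.16e-16), while the Wnt5a co-receptor gene Ror1 fell by 1.66 ± 0.15 (adjusted p = 4.41e-10). Of 7 other frizzled receptors, 5 were lower and 0 higher (median −0.65), among them Fzd4 at −1.05 ± 0.13 (adjusted p = 1.59e-07) and Fzd8 at −0.99 ± 0.08 (adjusted p = 6.2e-11). Of 13 Wnt and beta-catenin genes 8 were lower and 1 was higher (median −0.29), with Tcf7l1, a transcription factor of that branch, at −1.34 ± 0.09 (adjusted p = 7.61e-13).

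Fat and Dachsous proteins are giant cadherins of a second polarity system, and their list also held Fjx1, Lix1 and Lix1l. Of its 8 tested genes 2 were higher and 4 lower (median −0.24), beside 36% and 34.9% of all genes. Fat4 was lower by −1.46 ± 0.11 (adjusted p = 9.44e-12).

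Dchs1 was higher in multiciliated than in deuterosomal stages by 3.11 ± 0.13 (adjusted p = 4.3e-16) and Dchs2 by 2.93 ± 0.24 (adjusted p = 1.97e-10), among 3 of 8 Fat and Dachsous genes that were higher and 3 that were lower (median 0.09, against 0.03 over all genes). Over all genes 28.7% were higher and 26.7% lower in this comparison, and several of the lists lay near those shares. Of the 13 ligands and modulators 3 were higher and 6 lower (median −0.66), with the secreted modulator Sfrp2 at −2.35 ± 0.28 (adjusted p = 1.02e-07). Of 7 other frizzled receptors 1 was higher and 3 lower (median −0.35), with Fzd7 at −1.79 ± 0.19 (adjusted p = 2.69e-08). Of the 15 basal body genes 2 were higher and 5 lower (median 0.08), with Cby1, a protein of the basal body, at −1.37 ± 0.12 (adjusted p = 1.14e-08). Of 10 trafficking and scaffold genes 0 were higher and 4 lower (median −0.02), with Scrib at −0.95 ± 0.08 (adjusted p = 3.05e-10). The remaining lists had 2 of 4 CPLANE genes higher, 1 of 5 other core genes higher, and 4 of 13 Wnt and beta-catenin genes higher and 1 lower.

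With DESeq2 size factors in place of TMM the median of all genes in this comparison shifted by 0.13, and the share of higher genes among those that passed went from 51.8% to 65.1%. For the steps, the split went from 39.5% to 57.0% for late against mid deuterosomal cells and from 45.4% to 59.6% for early MCCs against late deuterosomal cells. For neuroblasts the shift was 0.15, and the split went from 39.1% to 45.9%.

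**Figure D5:**
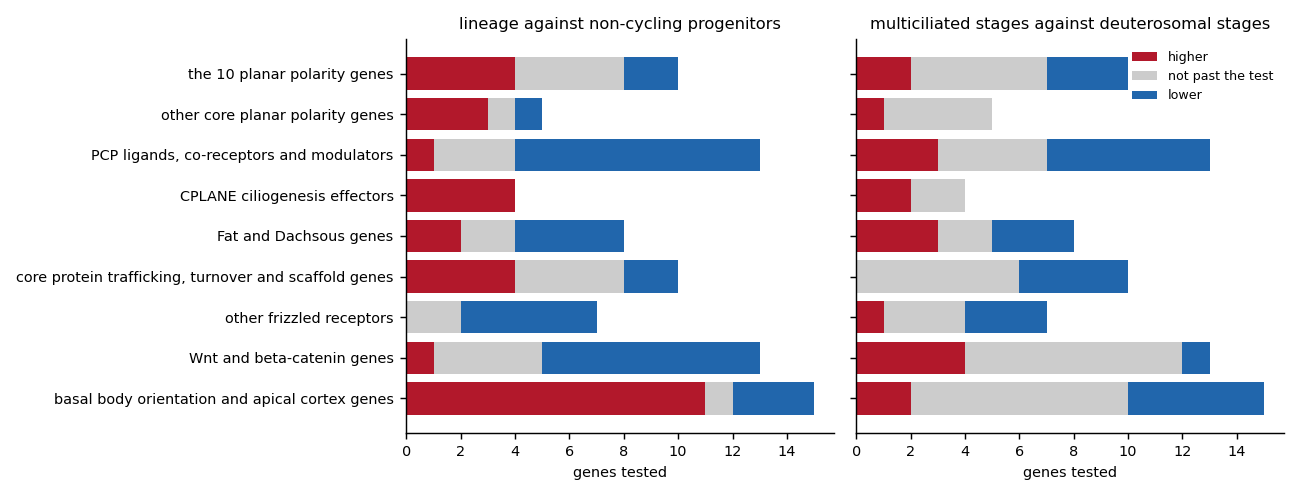
Number of genes tested (x axis) that were higher (red), not past the test (grey) or lower (blue) for the 10 planar polarity genes and 8 related lists (y axis), in the lineage against non-cycling progenitors (left) and in multiciliated against deuterosomal stages (right). On the left 11 of 15 basal body genes are higher and 9 of 13 ligand and modulator genes lower.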

How the data were processed

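Single-cell 3′ RNA libraries of 2 ependymal cultures were analysed. The deposited count table holds whole UMIs per gene and cell. The submitters' processing notes name Cell Ranger, versions 3 and 5.0.1, and the mm10 build. The version used for each library, the cell and doublet filters and the use of strand are not named in the sources used here. No doublet caller was run. Population names, replicate numbers and cell cycle classes are those of the deposited metadata. The lowest UMI totals per cell were 2523 and 2502, and the highest mitochondrial shares 9.00% and 9.99%. Replicate numbers tie each cell to its library, and other columns of per-sample values numbered 0.

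Counts were summed per population and library. A population needed 20 cells per library, and the 13 that met this (26 sums) entered 1 edgeR 4.0.16 quasi-likelihood fit in R 4.3.3 (limma 3.58.1), with TMM factors, filterByExpr defaults and library as a block, since populations of a library share a culture and a run. Deviations of the sums of the same library from their population means had a median correlation of 0.184. The fit tested 15877 genes, two-sided, with Benjamini-Hochberg adjustment over all of them, in 6 comparisons and 5 steps. Fibroblasts (18 and 22 cells) are given as levels only. Levels carry exact 95% Poisson intervals and shares exact Clopper-Pearson intervals (scipy 1.17.1), which cover counting error only. For shares of cells each cell was thinned to 5000 UMIs, and the 607 shallower cells were left out. The scripts were tested on simulated data. DESeq2 1.42.0 was an alternative. Gene positions come from GENCODE M21 (32158 identifiers matched).

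All 10 genes are described. From each list up to 2 genes with the highest and 2 with the lowest change were eligible to be named, among those past the test with the same direction in both libraries. The genes and lists were chosen with earlier results of these data known. The results of 1 list and of 1 gene among those most like the 10 genes are not reported here.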

Additional observations from a re-analysis of the deposited data

Results flagged for a closer look

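Fibroblasts had too few cells for the fit, and Vangl2 was counted in them at a mean of 24.4 CPM. The value was 19.0 CPM in replicate 1 and 29.7 CPM in replicate 2, from 5 and 10 UMIs. It was noted because these cells entered no comparison and the level was above the limit that a count of 0 allows. Microglia held 24.2 CPM of Vangl2 in replicate 1 and 1.44 CPM in replicate 2. The fibroblast value was thus below that of microglia in replicate 1, and the part of free RNA in it was not tested.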

How the results depend on the processing

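With 34 cells per population and library, 3977 genes passed the test for the lineage against non-cycling progenitors, 3744 against cycling progenitors, 2688 for multiciliated against deuterosomal stages, 1440 for cycling against non-cycling progenitors, 2 for progenitors II against I and 3701 for neuroblasts. In the same order the counts with all cells were 11248, 9412, 8790, 6135, 1139 and 7055. Of the 10 genes, 3, 3, 0, 0 and 1 then passed (progenitors II against I left out), and 1 call was made over the 5 steps. Some of the 10 genes, Fzd6 and Dvl1 among them, did not enter the test in this setting, so a gene not counted need not have failed it. The signs of some values also changed with 34 cells. Dvl2 turned to 0.23 in the lineage against cycling progenitors and to −0.014 in cycling against non-cycling progenitors. In multiciliated against deuterosomal stages Celsr2 turned to 0.20, Vangl2 to 0.085, Mapk8 to 0.13 and Znrf3 to 0.017. Fewer cells give fewer counts, so this setting bounds what depth allows.

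Without the replicate block 2822 genes and 0 of the 10 passed for cycling against non-cycling progenitors, 89 genes passed for progenitors II against I, and 1 step call was made, against 9 with the block. In thinned cells 3 of the 10 genes passed against cycling progenitors, and with no low count filter 1 passed for cycling against non-cycling progenitors. When the fit held the 2 sides alone, 4 of the 10 passed there, 4805 genes and 2 of the 10 for progenitors II against I, and 19 step calls were made. The cause was not tested.

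Uncalled values near 0 changed sign. In the lineage against non-cycling progenitors Fzd3 was −0.021 with no filter, −0.0083 without unannotated cells and −0.022 when the fit held the 2 sides alone, and Prickle1 was −0.037, −0.032 and −0.053 there and −0.025 in DESeq2's Wald test. Leaving out 1 library leaves no residual degrees of freedom, so these values have no test. The ranges were −0.0089 to 0.055 for Fzd3, −0.065 to 0.077 for Dvl1 and −0.44 to 0.11 for Prickle1 in that comparison, −0.76 to 0.67 for Prickle1 against cycling progenitors and −0.033 to 1.06 for Dvl2 in neuroblasts.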
